A study of Mus musculus with 2 samples.

Results

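The promoters of 36 genes of intraflagellar transport and of the BBSome were examined for DNase I accessibility in mouse kidney. The 36 genes, of 21938 protein-coding genes annotated by GENCODE M21 on mm10, were taken by name from the transport complexes, their motors and the proteins that assemble, recruit or accompany them, and all 36 were found in the annotation. A promoter was taken as the 1 kb on either side of any annotated transcription start of the gene. DNase-seq sequences the ends left where DNase I cuts nuclear DNA, so that a peak marks open chromatin, and a footprint is a short protected stretch within it. Kidney tissue came from female B6CASTF1/J mice aged 36 days, the first-generation hybrid of C57BL/6J and CAST/EiJ, and neither a treatment nor a second tissue was profiled. There were 2 libraries, labelled biological replicates 1 and 2, which form 1 group; the labels number the females separately but give both the same donor entry. With 1 group no test between conditions was possible, and each value is given for each library. In whole tissue, a peak carried by fewer cells and a weaker peak in every cell cannot be told apart.

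Intraflagellar transport (IFT) carries cargo along the microtubules of the cilium: the IFT-B complex travels with kinesin-2 toward the tip, and the IFT-A complex with dynein-2 back to the base. The BBSome, a coat of several BBS proteins, rides on these trains and takes membrane proteins out of the cilium. Most tubule cells of the kidney carry a single non-motile primary cilium, and loss of IFT proteins in mice leads to kidney cysts. Transcription factors of the RFX family bind a sequence called the X-box in the promoters of many ciliary genes, as is known from worms to mammals.

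A match to the X-box lay in the promoter core of 9 of the 36 genes. The motif was searched on both strands as GTTNCC, 2 free bases and GGNAAC, with at most 1 mismatch among its 10 fixed letters. Within the 250 bases before to 50 after the reference start, the start of the gene's principal transcript, the share was 25% of the 36 genes, 2.53% of all protein-coding genes, and 3.19% of those with a promoter peak in both libraries. Those 9 were Ift22, Ift57, Ift172, Ift140, Bbs1, Bbs4, Bbs7, Arl6 and Nphp4. A match is a description of letters and not a bound site.

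The X-box was covered by a footprint in both libraries at 4 genes, Ift57, Bbs7, Ift22 and Arl6, against 2.4% of all protein-coding genes with a peak in both libraries. Their sequences are shown because in these promoters motif and footprint coincide. Each stretch is read from the RefSeq sequence of GRCm38.p6 (mm10), 5′ to 3′ on the strand of the gene, with the X-box in capitals and 40 bases on each side. The genome is that of C57BL/6J, and the CAST/EiJ allele of the hybrid was not analysed here.
Ift57, chr16:49699167-49699260, + strand: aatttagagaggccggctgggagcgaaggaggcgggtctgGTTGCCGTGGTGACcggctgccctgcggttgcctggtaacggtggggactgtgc
Bbs7, chr3:36613457-36613550, - strand: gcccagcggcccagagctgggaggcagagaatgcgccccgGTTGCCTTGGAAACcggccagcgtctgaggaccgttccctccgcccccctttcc
Ift22, chr5:136908077-136908170, + strand: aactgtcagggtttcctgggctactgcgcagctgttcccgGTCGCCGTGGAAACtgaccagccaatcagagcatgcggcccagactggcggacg
Arl6, chr16:59639120-59639213, - strand: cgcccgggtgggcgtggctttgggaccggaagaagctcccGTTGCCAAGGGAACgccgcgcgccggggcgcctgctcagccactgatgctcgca

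In Bbs7 and Arl6 the match was exact, and in Ift57 and Ift22 it had 1 mismatch. All 14 bases of the motif lay inside a footprint in each library at all 4 genes. At Ift57 that footprint was 32 bp wide in replicate 1 and 24 bp in replicate 2. At Arl6 it spanned 30 and 28 bp, at Ift22 27 and 24 bp, and at Bbs7 24 and 21 bp. Over all footprints of the 36 promoters the median width was 15 and 13 bp. A footprint that holds all 14 bases of the motif cannot be narrower than the motif, so these widths cannot be compared with that median. The middle of the X-box lay 26.5 bp upstream of the reference start in both Ift22 and Bbs7, 19.5 bp upstream in Ift57, and 0.5 bp downstream in Arl6, where the motif spans the start.

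Matches at the other genes were covered partly, in 1 library or not at all. Those of 5 of them are printed below for comparison, with the fixed letters that match in capitals and all other bases in lower case, on the strand of the gene.
Ift52, chr2:163016994-163017007, + strand: GTTtCCatGGcAAC
Ift172, chr5:31291059-31291072, - strand: GTTgtCcaGGtAAC
Ift140, chr17:25016400-25016413, + strand: GTcaCCcaGGgAAC
Bbs1, chr19:4906613-4906626, - strand: GTTgCCaaGGcgAC
Bbs4, chr9:59353472-59353485, - strand: GTcgCCcgGGaAAC

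In Ift52, the one further exact match, the motif lay 353.5 bp upstream of the start and was wholly inside a 17-bp footprint in replicate 1 but in no footprint of replicate 2. In Ift172 a footprint covered 5 of the 14 bases in each library, and in Bbs4 footprints covered 5 and 7 bases. No footprint touched the match at Bbs1 or Ift140 in either library. Over the whole 1-kb windows there were 14 matches in 12 of the 36 genes (33.3%, against 19.8% of all genes with a peak in both libraries), and 4 matches (28.6%) were footprinted in both libraries. Among all genes with a peak in both libraries, 327 of 3093 matches (10.6%) were.

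**Figure D1:**
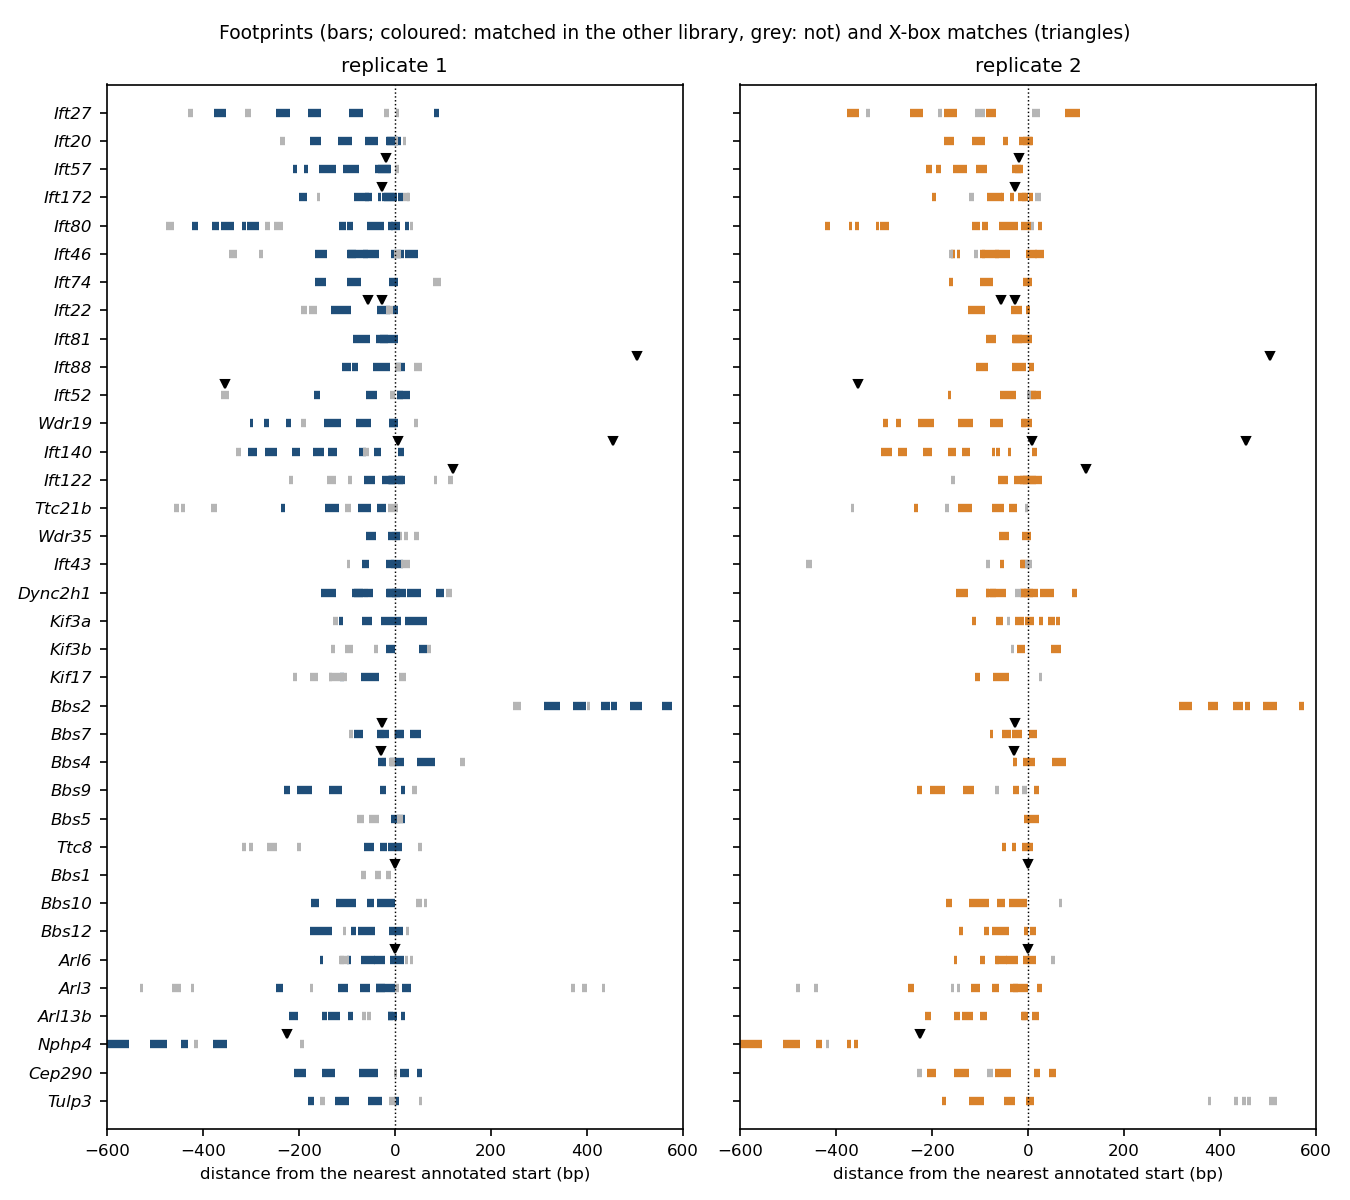
Footprints around the nearest annotated start of each gene, with upstream to the left and distance in bp up to 600 on each side, for replicate 1 (left) and replicate 2 (right). Coloured bars were matched in the other library, grey bars were not, and triangles mark X-box matches; most bars lie just upstream of the start, those of Bbs2 lie more than 250 bp downstream, and Bbs1 has none in replicate 2.

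All 36 genes had a promoter peak in both libraries. Among all protein-coding genes 60.7% did, with 66.9% in replicate 1 and 60.9% in replicate 2. Peaks are those of the authors' stricter set, which held 124504 peaks in replicate 1 and 68056 in replicate 2. At all 36 genes the tallest peaks of the libraries overlapped (95.6% of genes with a peak in both), and at 31 they covered an annotated start of the gene in both libraries (65.8%). Peak height is the authors' own signal value on a scale that is not stated. In replicate 1 the median height of the tallest promoter peak was 12.2, against 7.34 over the 14673 protein-coding genes with one. In replicate 2 it was 7.24, against 5.35 over 13351 genes. In both libraries 24 of the 36 lay above the median gene and 6 lay below it.

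**Figure D2:**
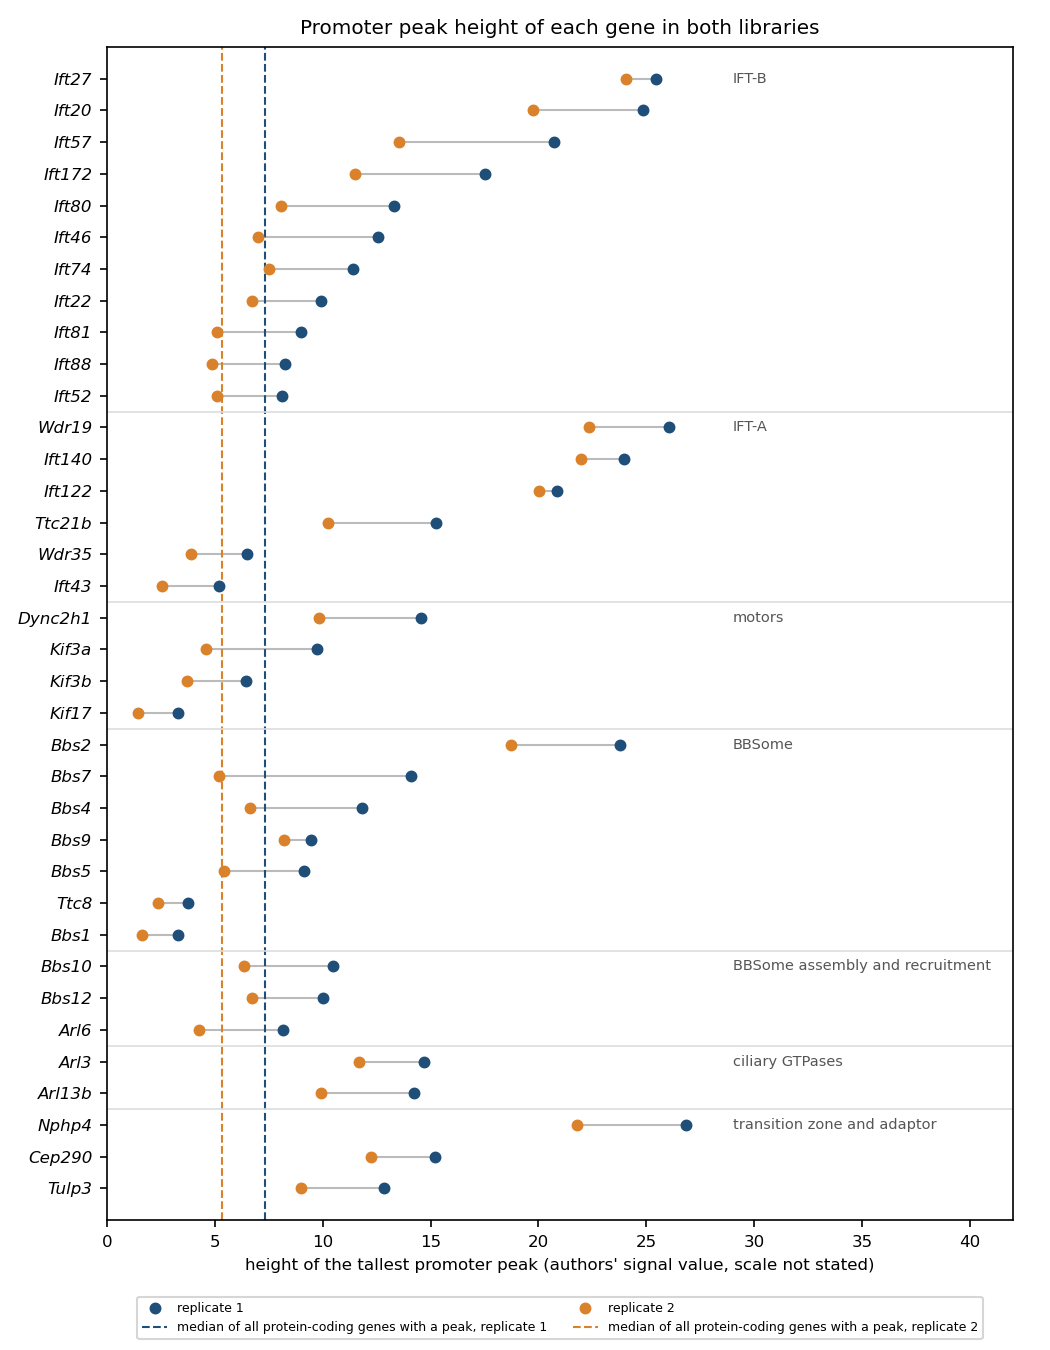
Height of the tallest promoter peak (horizontal axis, the authors' signal value) of each of the 36 genes, grouped by role, with a blue point for replicate 1 and an orange point for replicate 2 and dashed lines at the medians of all protein-coding genes with a peak. The heights run from 3.28 to 26.8 in replicate 1 and from 1.45 to 24.1 in replicate 2, and each orange point lies left of its blue point.

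Within the IFT-B complex heights ran from 8.14 to 25.4 in replicate 1 and from 4.89 to 24.1 in replicate 2, with medians of 12.6 and 7.50 over 11 genes. Ift27, a small GTPase that helps the BBSome leave the cilium, had the tallest peak of the complex at 25.4 in replicate 1 and 24.1 in replicate 2. Ift20, which also serves transport from the Golgi, reached 24.8 and 19.8. Both lay within the top 10% of genes in each library. Ift57 had 20.7 and 13.5, and Ift172, the largest IFT-B subunit, 17.5 and 11.5. Ift80, of the peripheral part of the complex, measured 13.3 and 8.06. These 5 were above the median gene in each library.

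The other 6 IFT-B genes were lower in both libraries. Ift46 had heights of 12.6 and 6.99. Ift74 had 11.4 and 7.50, and its partner Ift81, with which it binds tubulin, had 9.02 and 5.08. Ift22, a small GTPase of the core, measured 9.93 and 6.71. At the low end were Ift88, the gene disrupted in the Oak Ridge polycystic kidney mouse, at 8.28 and 4.89, and Ift52, a scaffold of the core, at 8.14 and 5.12. Ift81, Ift88 and Ift52 were above the median gene in replicate 1 and below it in replicate 2.

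IFT-A genes differed widely among themselves. Wdr19 had the tallest peak of the complex at 26.1 and 22.3, followed by Ift140 at 24.0 and 21.95 and Ift122 at 20.8 and 20.02. Ttc21b, in which mutations cause human kidney disease, was intermediate at 15.2 and 10.3. Wdr35 had 6.50 and 3.90, and Ift43, the smallest subunit, 5.21 and 2.55. The last 2 lay below the median gene in both libraries.

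Among the motor genes, Dync2h1, the heavy chain of dynein-2, was the highest at 14.5 and 9.82. That peak also lies within 1 kb of a start of another gene, Dcun1d5. Kif3a and Kif3b, the motor subunits of heterotrimeric kinesin-2, had 9.72 and 4.57, and 6.43 and 3.70. Kif17, a homodimeric kinesin-2 studied mostly in neurons, had 3.30 and 1.45, the lowest height of the 36 in replicate 2. The order of these 4 was the same in both libraries.

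BBSome subunits varied widely too. Bbs2 stood at 23.8 and 18.7, well apart from Bbs7 at 14.1 and 5.20 and Bbs4 at 11.8 and 6.63. Bbs9 had 9.46 and 8.22, and Bbs5 had 9.12 and 5.43. Ttc8 had 3.78 and 2.37. Bbs1, the subunit through which Arl6 recruits the complex, had 3.28 and 1.63, the lowest height of the 36 in replicate 1. Bbs1 and Ttc8 lay below the median gene in both libraries although their proteins work in the same complex as Bbs2.

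The genes that build and place the BBSome were close together. Bbs10 and Bbs12, chaperonin-like proteins needed for its assembly, had heights of 10.5 and 6.38, and of 10.003 and 6.73. Arl6, the GTPase that brings it to the membrane, had 8.18 and 4.28. The other ciliary GTPases were higher, with 14.7 and 11.7 at Arl3, which releases lipidated cargo inside the cilium, and 14.3 and 9.93 at Arl13b, its activator. Cep290, a structural protein of the transition zone, had 15.2 and 12.3. Tulp3, the adaptor that couples membrane receptors to IFT-A, had 12.8 and 9.01. The tallest peak of all 36 in replicate 1 was assigned to Nphp4, a nephronophthisis protein of the transition zone, at 26.8, with 21.8 in replicate 2.

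No gene of the 36 was higher in replicate 2, and 3.87% of all genes with overlapping tallest peaks were. The median log2 ratio of replicate 2 over replicate 1 was -0.61 at the 36 genes and -0.56 over all of these genes, so the 36 followed the offset between the libraries. Bbs7 had the lowest ratio at -1.44, and Ift122 the one nearest 0 at -0.06. Across the 36 genes the heights of the libraries had a Spearman correlation of 0.96, over points that share the same pair of libraries.

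At Nphp4, Bbs2 and Ift140 the tallest peak did not lie at the reference start. The peak of Nphp4 had its middle 531.5 bp upstream of that start in both libraries, on the side of Kcnab2, a potassium channel subunit gene read in the opposite direction, and no peak lay within 100 bp of the reference start. RefSeq lists 3 starts for Nphp4, and the peak lay 127.5 bp upstream of the nearest. At Bbs2 the peak middle was 407.5 and 417.5 bp downstream of the GENCODE reference start. The RefSeq start of Bbs2 lies 419 bp downstream of the GENCODE one, and the peak middle was 11.5 and 1.5 bp upstream of it. At Ift140 the tallest peak lay 450.5 and 440.5 bp upstream, on the side of Cramp1l. The RefSeq start of Ift140 lies upstream of the GENCODE reference start, and the peak middle was 145.5 and 135.5 bp upstream of it. The peak at the reference start of Ift140 itself had a height of 4.29 and 3.11. At Dync2h1 the tallest peak had its middle 14.5 bp upstream of the GENCODE reference start in both libraries. The RefSeq start of Dync2h1 lies 7388 bp downstream of that start, and the peak middle was 7402.5 bp upstream of it.

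Several of the highest values stood at promoters shared with a neighbour. A protein-coding gene read away from the member, with its start at most 1 kb upstream, was present at 10 of the 36 genes (17.1% of all genes with a peak in both libraries). The closest pair was Ift20 and Tnfaip1, whose nearest starts were 29 bp apart. Arcn1, Dcun1d5 and Mbd4 were the next closest. Ift46 and Arcn1 were 63 bp apart, at an alternative start of Ift46 away from its tallest peak, Dync2h1 and Dcun1d5 74 bp, and Ift122 and Mbd4 99 bp. Bbs12 and Cetn4, a centrin gene, were 108 bp apart. The other pairs were Arl3 and Sfxn2 at 167 bp, Ift80 and Smc4 at 168 bp, Cep290 and Tmtc3 at 208 bp, Nphp4 and Kcnab2 at 271 bp, and Ift140 and Cramp1l at 297 bp. A peak at such a pair cannot be assigned to either gene.

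The median height of the 10 genes with a neighbour was 14.9 and 11.97, and that of the 26 without was 9.83 and 5.90. Among all genes with a peak in both libraries the same split gave 12.5 and 8.89 against 7.396 and 4.76. The ranges overlapped, since Wdr19, Ift27 and Bbs2 had no such neighbour. Within 1 kb of the tallest peak in both libraries, 13 of the 36 had the start of another gene of any type (31.8% of all such genes), and 9 that of another protein-coding gene (20%). The neighbours not annotated as protein-coding were Gm49694 at Ift27, A430108G06Rik at Kif3a, 4930547E14Rik at Arl6, Gm26770 at Tulp3, and Gm43439 beside Cetn4 at Bbs12.

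The 36 promoters were rich in CpG, which is common to most open promoters. The observed over expected CpG ratio in the 1001 bp around the reference start ran from 0.526 at Ttc8 to 0.979 at Ift140, with a median of 0.712. Over all genes with a peak in both libraries the median was 0.721, and over all protein-coding genes 0.570. Of the 36, 11 fell in the 6th decile of this ratio, where 82.3% of genes had a peak in both libraries, and 10 in the 7th, where 87.1% did. A further 9 were in the 8th decile (91.1%), and no gene was in the lowest 4.

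Footprints were found at all 36 promoters in replicate 1 and at 35 in replicate 2. They numbered 287 and 226 in all, with a median of 7 and 6.5 per gene, against 8 and 6 over all genes with a peak in both libraries. The highest counts in replicate 1 were 18 at Ift122, and 15 at Ift80 and at Arl3. In replicate 2 Ift46, Ift80 and Ift140 had 12 each. Ift81 had the fewest in replicate 1, with 3. Genes with taller peaks held more footprints across the 36, with a Spearman correlation of 0.61 in replicate 1 and 0.67 in replicate 2, where 0.48 and 0.58 were found over all genes with a peak in both. Genes with more annotated starts have a longer window. Per 1000 bp of window the median number of footprints was 1.31 and 0.986 at the 36 genes, against 1.79 and 1.35 over all genes with a peak in both. Whether height and footprint number depend on the depth of their library was not tested.

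A footprint was matched between the libraries, by overlap over at least 50% of the shorter, at 35 of the 36 genes (95.5% of all genes with a peak in both). The exception was Bbs1, with 4 footprints in replicate 1 and none in replicate 2. Of all footprints at the 36 promoters, 58.9% in replicate 1 and 78.3% in replicate 2 had a match, against 51.9% and 71.6% over all such genes. At Ift80 11 of 15 footprints of replicate 1 were matched, and at Ift57, Wdr19, Arl13b and Bbs2, among others, every footprint of replicate 2 was.

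Most footprints lay close to a start and upstream of it. Within 100 bp of the nearest annotated start were 56.1% in replicate 1 and 57.5% in replicate 2, against 46.6% and 50.1% over all genes with a peak in both. Upstream of it lay 68.6% and 76.5%, against 63.8% and 66.5%. The median position was 51.5 bp upstream in replicate 1 and 58.25 bp upstream in replicate 2. A footprint with its middle within 30 bp of a start was present at 34 genes in replicate 1 (84.2% of all genes with a peak in both libraries) and at 33 in replicate 2 (77.5%), where Bbs1 had none. Between 150 and 250 bp downstream of the nearest start no footprint was found at any of the 36 in either library. That range was picked after the values were seen. Over all genes with a peak in both, the 50-bp bins there held 1.60% and 1.37% of footprints in replicate 1, and 1.38% and 1.25% in replicate 2. Measured from the reference start, footprints of the 36 did lie there in both libraries. The exceptions near the start were Bbs2, whose nearest footprint lay 254.5 and 328.5 bp from a GENCODE start, and Nphp4, with 193.5 and 358 bp.

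**Figure D3:**
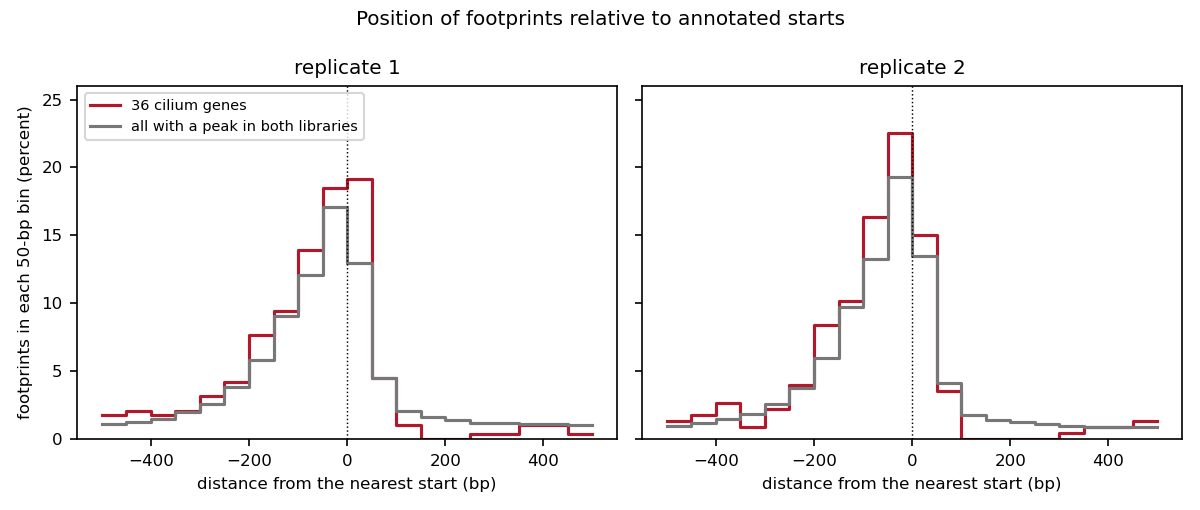
Share of footprints (percent) in 50-bp bins of distance from the nearest annotated start, for the 36 genes (red) and all protein-coding genes with a peak in both libraries (grey), in replicate 1 (left) and replicate 2 (right). In replicate 1 the shares of the 36 genes are highest in the 50 bp upstream (18.5%) and downstream (19.2%) of the start, and in replicate 2 in the 50 bp upstream (22.6%), followed by 16.4% in the next bin upstream and 15.04% just downstream.

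The accessible stretch at the start was also measured from the authors' false discovery rates. The widest run of positions at a rate of at most 0.001 that reached within 100 bp of the reference start had a median of 711.5 bp in replicate 1 and 545 bp in replicate 2. Over all genes with such a run the medians were 606 and 506 bp. It was longest at Ift80, with 1580 bp in replicate 1, and at Ift140, with 1013 bp in replicate 2. No such run was found at Bbs2 in replicate 2. Away from promoters, over the gene body and the 10 kb flanking it, the 36 genes had a median of 2 peaks shared by the libraries, as did all genes with a promoter peak in both. Ift140 had 12, Ift122 had 10, and 8 genes had none. These counts were not scaled by gene length. The median length was 46818 bp at the 36 genes and 24643 bp over all genes with a promoter peak in both libraries.

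Beside the X-box, 13 short motifs were searched on both strands, and at 28 of the 36 genes some motif was footprinted in both libraries. Footprinted matches were counted in the 1-kb windows of every annotated start, so some lie far from the reference start. The same held for 63.3% of all genes with a peak in both libraries. The motif of the SP and KLF factors (GGGCGGG) was the most frequent, footprinted at 14 genes (42.2% of all such genes). That of NRF1, a regulator of housekeeping promoters (GCGC, 1 free base and TGCGC), was footprinted at 7 (11.9%): Ift27, Ift80, Ift172, Wdr19, Wdr35, Kif3a and Arl3. The CCAAT motif of NFY was found in the 300 bases of 24 genes (66.7%), against 38.4% of all protein-coding genes, but was footprinted at 6 (13.4%). These were Ift88, Kif3a, Kif17, Bbs12, Nphp4 and Tulp3. The match of Kif17 lay 11905 bp upstream of its reference start, near an alternative start.

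The cyclic AMP response element (TGACGTCA) was footprinted at Ift20, Ift57, Ift81 and Kif17, 4 of the 36 (3.91%). At Ift20 it lay 830.5 bp upstream of the reference start. An ETS motif (CCGGAAG) was footprinted at 4 (9.36%), namely Ift20, Ift88, Dync2h1 and Bbs2. The RFX half-site (GTTGCCA), which can overlap the X-box, was footprinted at 3 (2.37%), Ift81, Wdr35 and Arl6, and in Arl6 it lies inside the X-box. The E-box CACGTG was footprinted at Wdr19 and Arl3, 2 genes (5.84%). A YY1 motif (AAGATGGCG) was footprinted at Ift46 (1.47% of all genes), and a BANP motif (CTCGCGAG) at Ift74 (1.43%). The match of Ift46 lay 5097 bp upstream of its reference start, near an alternative start and away from its tallest peak. No footprinted match was found for the forkhead motif GTAAACA (0.0676%), the TATA box TATAAA (1.02%), the ZNF143 motif ACTACAA (0.849%) or the HNF1 motif, GTTAAT, 1 free base and ATTAAC with at most 1 mismatch (0.225%).

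**Figure D4:**
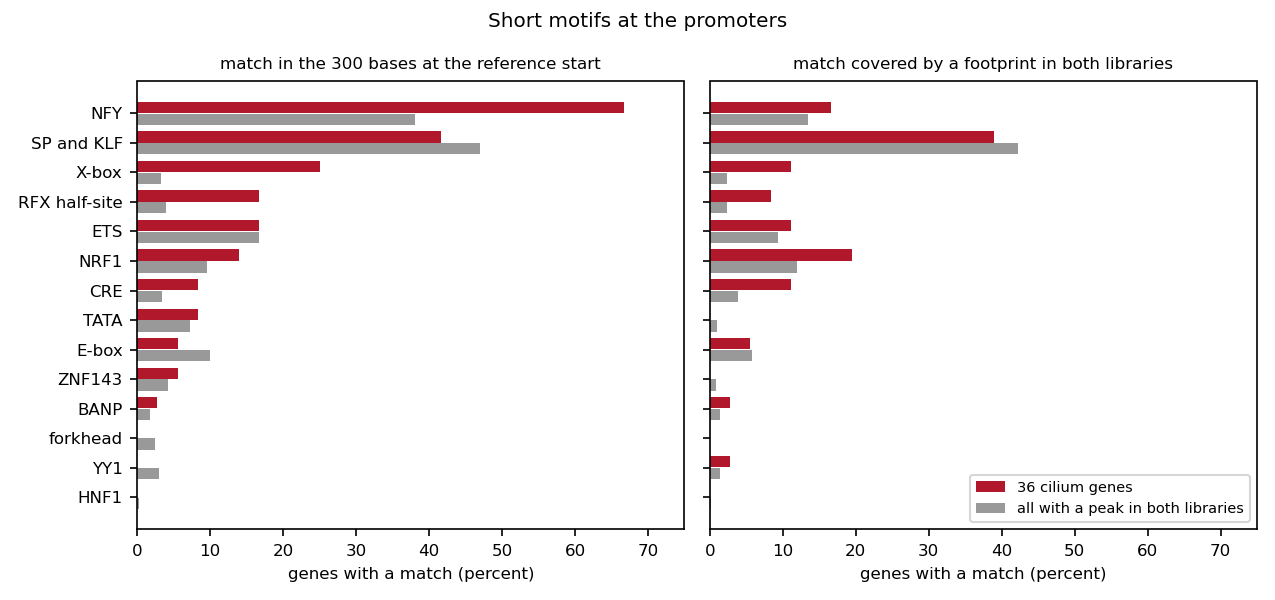
Percent of genes with a motif match in the 300 bases at the reference start (left) and with a match in the 1-kb windows covered by a footprint in both libraries (right), for the 36 genes (red) and all protein-coding genes with a promoter peak in both libraries (grey). The X-box stands at 25% against 3.19% on the left and 11.1% against 2.4% on the right, and the motif of SP and KLF factors at 38.9% against 42.2% on the right.

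The arrangement of footprints is shown for 3 promoters that were chosen after their values were seen: Ift20, with the closest neighbour, Wdr19, high with no neighbour, and Kif17, the lowest in replicate 2. Each covers 250 bases before to 50 after the reference start, from RefSeq GRCm38.p6, 5′ to 3′ on the strand of the gene. Capitals mark bases inside a footprint in both libraries.
Ift20, chr11:78536111-78536410, + strand: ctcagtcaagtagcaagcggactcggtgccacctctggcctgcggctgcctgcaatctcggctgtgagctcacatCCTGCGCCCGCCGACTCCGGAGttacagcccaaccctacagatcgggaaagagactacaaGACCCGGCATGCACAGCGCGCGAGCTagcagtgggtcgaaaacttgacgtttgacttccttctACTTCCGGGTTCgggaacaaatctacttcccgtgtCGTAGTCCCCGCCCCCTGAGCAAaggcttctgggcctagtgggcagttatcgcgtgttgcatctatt
Wdr19, chr5:65199446-65199745, + strand: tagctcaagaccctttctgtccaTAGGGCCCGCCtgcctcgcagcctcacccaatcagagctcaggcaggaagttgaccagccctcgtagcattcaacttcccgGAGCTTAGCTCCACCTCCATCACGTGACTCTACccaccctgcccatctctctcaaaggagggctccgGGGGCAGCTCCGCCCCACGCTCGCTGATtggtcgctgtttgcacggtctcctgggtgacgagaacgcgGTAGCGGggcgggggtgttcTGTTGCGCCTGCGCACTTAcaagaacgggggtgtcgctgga
Kif17, chr4:138261982-138262281, + strand: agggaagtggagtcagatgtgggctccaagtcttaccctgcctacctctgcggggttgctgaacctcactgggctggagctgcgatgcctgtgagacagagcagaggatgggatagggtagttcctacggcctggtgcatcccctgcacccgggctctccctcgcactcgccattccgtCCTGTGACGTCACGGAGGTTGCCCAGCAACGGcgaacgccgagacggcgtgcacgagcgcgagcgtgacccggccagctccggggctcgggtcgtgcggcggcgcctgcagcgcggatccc

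In Ift20, 83 of the 300 bases were footprinted in both libraries. The ETS motif lay 48 bp and the SP and KLF motif 7 bp upstream of the start of Ift20. In Wdr19, 98 bases were footprinted, with the E-box 123.5 bp upstream and the NRF1 motif 17.5 bp downstream of the reference start. In Kif17 a single run of 32 bases was footprinted. It holds the cyclic AMP response element, 63.5 bp upstream, and downstream of it a variant of the X-box with 1 free base in its middle, 48 bp upstream.

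Such variants were searched after the data had been seen, with 1 or 3 free bases in place of 2. Footprinted in both libraries were those of Wdr35 and Kif17 with 1 free base (0.653% of all genes with a peak in both) and that of Dync2h1 with 3 (0.503%). Together with the 4 genes above, 7 of the 36 had a footprinted X-box of some spacing, against 3.39% of all such genes.

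Other genes of the same machinery, from lists that exclude the 36, were open as well. Promoter peaks in both libraries were present at 8 of 8 further IFT-B and kinesin genes, 6 of 6 dynein-2 chains, 5 of 5 BBSome partners, and 17 of 17 transition zone and nephronophthisis genes. Among all protein-coding genes 60.7% had one. Median heights were 7.34 and 4.15 in the IFT-B and kinesin list, and 14.0 and 10.1 in the dynein-2 list. They were 23.6 and 20.4 in the BBSome list, and 11.8 and 7.13 in the transition zone list. Over all protein-coding genes with a peak they were 7.34 and 5.35. Among the tallest were Kifap3, the non-motor subunit of kinesin-2, at 19.3 and 15.7, Hspb11 at 13.5 and 10.9, Dynlrb1 at 20.8 and 15.2, and Dynll1 at 18.4 and 16.7. Rab8a, a GTPase of ciliary membrane traffic, had 27.4 and 28.3, Mkks, a chaperonin-like partner of Bbs10 and Bbs12, 23.6 and 24.6, and Rpgrip1l, of the transition zone, 23.6 and 16.0. The ciliary Hedgehog pathway had peaks at 10 of 10 genes but at lower medians of 3.12 and 2.27, with Sufu at 17.5 and 13.2 and Ptch1 at 6.83 and 5.01.

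Genes of motile cilia, which tubule cells lack, were open in both libraries at 15 of 18 (60.7% of all protein-coding genes). Their medians were 3.51 and 1.66 over those with a peak. Dnai1, an axonemal dynein chain, had 22.3 and 17.96 and Rsph1, a radial spoke protein, 21.1 and 11.7, while Dnah5 and Tekt2 had no peak in either library. Of 12 regulators, 8 had a peak in both libraries (60.7% of all protein-coding genes). Rfx1 had 31.8 and 35.8 and Rfx2 18.9 and 15.2, and Rfx4, Rfx6 and Rfx8 had no peak in either library. A footprinted X-box in both libraries was found at Ttc26, Ttc30a2, Ttc30b, Dync2li1, Mks1, B9d1, Ahi1, Zmynd10 and Dnaaf1, named here after their values were seen. Of genes with a peak in both libraries, these were 3 of 8 in the IFT-B and kinesin list and 1 of 6 in the dynein-2 list. They were 3 of 17 in the transition zone list and 2 of 15 in the motile cilium list, against 2.4% of all such genes. Ttc30a2 and Ttc30b are near-identical copies, so that their values are uncertain. None was found among the BBSome partners, the Hedgehog genes or the regulators.

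The tissue label was checked on marker genes. Peaks in both libraries were present at 4 of 4 proximal tubule markers, 2 of 2 of the thick ascending limb and 3 of 3 of endothelium. They were present at none of 3 leukocyte markers and 3 markers of other organs. Among all protein-coding genes 60.7% had one. Of the podocyte markers, Synpo had a peak in both libraries and Nphs1 in replicate 1 alone. Of 4 markers of motile ciliated cells, 3 had a peak in both libraries, and Dnah5 had none. Foxj1 had heights of 12.6 and 7.34, Dnah9 3.93 and 1.66, and Tekt1 3.48 and 1.20. Like Dnah9 and Tekt1, several kidney markers were below 4 in both libraries, with Slc34a1 at 2.90 and 1.37, Cubn at 2.29 and 1.03, and Cdh5 of endothelium at 3.51 and 2.39.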

How the data were processed

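DNase-seq files of 2 kidney libraries were used, each derived by the authors from the filtered alignment of that library to mm10, per the deposited descriptions. For the aligner, both callers and the sequencing depth, no name or number was given in the sources used here. The deposited peak files hold a signal value (peak height), in whole multiples (within 0.02) of 1 step per library. The deposited footprint files hold the value 0.01, a p-value or rate threshold, in every row, and the deposited cut-rate files hold false discovery rates (q-values) below 0.05. Every stricter-set peak reached a rate of 0.001 or lower. The libraries held 124504 and 68056 stricter-set peaks and 375848 and 223827 footprints, numbers that do not by themselves give the depth.

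The 36 genes and all lists were chosen with earlier results of these data known. Starts came from GENCODE M21 on 21 chromosomes; the reference start is that of the transcript with the best APPRIS tag. Footprints counted by their middle, and a motif was footprinted where 1 footprint covered at least 50% of its bases. Genes were named by rule: all 36, the 2 of each pathway list with the highest mean height rank, those with no peak in either library, and neighbours at a tallest peak; not every gene so named is reported here. Dnai1 and Dnai2 were matched by synonym, and Tctn2 was not matched to a protein-coding entry. Steps were run in Python 3.11.15 with numpy 2.4.6 and pandas 2.3.3 and tested on simulated data, where 400 of 400 planted X-box sites were found. Alternatives were other windows, starts, peak sets, matching and motif rules, and each library alone. Reads on either parental allele were not analysed here.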

Additional observations from a re-analysis of the deposited data

How the results depend on the processing

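Of 80 alternatives to 11 results, 61 stayed within the replicate spread or 1.5 times the count, and 19 moved. Only the log2 ratio had a sign that could reverse, and it stayed negative. The median height in replicate 1 was 12.2 under every choice of window, start and peak set. The median number of footprints per gene became 5.5 in replicate 2 with a 500-bp window, 8 and 7 with 2500 bp, 5 and 4 inside the stricter peaks, 6 in replicate 2 from protein-coding starts, and 6 and 6 from the reference start. The share within 100 bp of a start became 60.8% and 62.2% with 500 bp, 49.1% and 52.4% with 2500 bp, 61.5% and 65.5% inside the stricter peaks, and 48.6% and 51.5% from the reference start. A footprint with identical ends in both libraries was present at 7 genes. A footprinted X-box was found at 2 genes with no mismatch allowed and at 7 with 1 to 3 free bases, a choice made after seeing the data. With peaks limited to the stronger 50%, Kif17 alone lacked a promoter peak in some library. No paired analysis was possible because there was 1 group. With 2 libraries and no read totals, a footprint missing from replicate 2, which had fewer peaks, is not shown to be absent; the part of depth was not tested.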
